A study of Mus musculus with 8 samples.

Results

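Erythroid and megakaryocyte genes were followed through B-cell biased lymphoid progenitors of the mouse. The set holds 10 named genes of the 37991 gene IDs in the count table. Gata1, Klf1, Epor, Car1 and Car2 stand for the erythroid branch. Pf4, Vwf, Itga2b, Ppbp and Gp9 stand for the megakaryocyte branch. Each gene was found by matching its symbol to its Ensembl ID in the mm9 annotation, and all 10 matched a single ID. The 8 pools of cells were 4 of H2afy-/- genotype (H2afy_KO 1 to 4) and 4 of H2afy+/+ genotype (H2afy_WT 1 to 4), from mice aged 5 to 12 weeks. H2afy encodes the histone variant macroH2A1. Bone marrow of both genotypes was enriched for Kit-positive cells and the progenitors were then sorted by flow cytometry, so each pool held the RNA of 5000 to 15000 cells of 2 to 3 mice. The comparison asks whether transcripts of these other branches differ between progenitors with and without H2afy.

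Red cells and platelets descend from a shared bone marrow progenitor that is held to part early from the lymphoid line. GATA1 is the transcription factor that both branches need, and it acts with FOG1, the SCL complex and, in erythroid cells, with KLF1. Erythropoietin, read through its receptor EPOR, keeps erythroid progenitors alive. In bulk RNA such as this, fewer cells of a type and less RNA per cell cannot be told apart.

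GATA factors bind the letters GATA within a short motif, and the ETS factors of megakaryocytes bind a GGAA core. The RefSeq promoter table (build GRCm38.p6) held 7 of the 10 genes, all but Car1, Car2 and Vwf. The 250 bases before each start site were searched on both strands for a GATA motif, either AGATAA or its variants AGATAG or else TGATAA or else TGATAG, for GGAA, and for CACCC, the letters of KLF-type sites. A GATA motif was in 2 of the 7 windows (28.6%), against 26.5% of the 32851 promoters in the table. GGAA was in 7 of 7, against 93.4%, and CACCC in 4 of 7 (57.1%), against 52.0%. These shares lay near those of all promoters. The windows of Klf1 and Epor are shown because they hold the GATA motif, which is in capitals as it reads on the gene's strand. The window of Pf4 is shown because Pf4 had the largest difference between genotypes among the tested genes of the set, and its capitals mark GGAA or its reverse complement TTCC.
Klf1, chr8:84901732-84901981, plus strand: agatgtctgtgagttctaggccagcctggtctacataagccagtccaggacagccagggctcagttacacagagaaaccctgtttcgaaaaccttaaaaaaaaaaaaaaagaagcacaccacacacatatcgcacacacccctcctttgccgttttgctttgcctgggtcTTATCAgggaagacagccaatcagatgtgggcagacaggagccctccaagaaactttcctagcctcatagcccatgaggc
Epor, chr9:21963577-21963826, minus strand: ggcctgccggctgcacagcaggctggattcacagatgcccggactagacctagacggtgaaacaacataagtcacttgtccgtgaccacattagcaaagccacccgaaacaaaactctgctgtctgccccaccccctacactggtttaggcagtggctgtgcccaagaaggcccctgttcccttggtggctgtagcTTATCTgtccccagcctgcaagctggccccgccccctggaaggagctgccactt
Pf4, chr5:90772185-90772434, plus strand: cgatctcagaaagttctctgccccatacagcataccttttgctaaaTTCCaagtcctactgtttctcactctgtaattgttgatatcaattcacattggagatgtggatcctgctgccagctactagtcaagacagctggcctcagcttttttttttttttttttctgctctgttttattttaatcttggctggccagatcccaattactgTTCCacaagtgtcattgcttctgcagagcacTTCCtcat
The GATA motif began at position -80 of Klf1 and -54 of Epor, counted from the start site. A match describes these letters and was not tested as a site.

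Total gene counts ran from 21330088 to 29029765 over the 8 libraries. A filter on low counts kept 13722 genes. Defining genes of the sorted cells were present: all 14 genes of a lymphoid progenitor list, among them Kit, Il7r, Flt3, Ly6d and Dntt, had counts, and their summed level was 7305 to 8799 CPM (counts-per-million on TMM-scaled library sizes) in H2afy_KO and 9839 to 12110 CPM in H2afy_WT. Immunoglobulin genes took 0.402% to 39.0% of the counts of H2afy_KO pools and 0.948% to 19.5% of those of H2afy_WT pools. H2afy itself kept 1659 ± 238 CPM in H2afy_KO against 2267 ± 288 CPM in H2afy_WT (SD, n = 4 each; edgeR quasi-likelihood adjusted p = 0.504). Which exons the allele lacks is not stated in the labels, so that count checks no genotype.

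Levels in the set covered a wide range when scaled to exon length. In the H2afy_WT pools Car2 and Car1 stood first, at 246 ± 122 and 92.5 ± 78.6 CPM per kilobase (SD, n = 4). Their ranges overlapped each other. Car1 lay above the next gene in all pools of the group. Pf4 (8.48 ± 5.39), Gata1 (4.64 ± 4.02) and Gp9 (4.08 ± 2.06 CPM per kilobase) followed with overlapping ranges, and Gp9 lay above the next gene. Epor, Itga2b, Klf1, Ppbp and Vwf lay between 0.126 and 0.359 CPM per kilobase on average, and neighbours in that order overlapped. In H2afy_KO the same 5 genes filled the upper places, with Car2 at 122 ± 39.3 and Car1 at 40.7 ± 25.4, then Gp9 (2.66 ± 0.485), Gata1 (1.62 ± 0.730) and Pf4 (1.17 ± 0.809 CPM per kilobase). Car2 and Car1 together made up 97.3% to 99.3% of the summed CPM of the 5 erythroid genes in each pool.

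Of the 10 genes, 8 passed the filter and were tested. Epor and Ppbp did not pass. The edgeR quasi-likelihood test over all 13722 genes called 0 of the 8, with adjusted p of 0.426 to 0.944, and it called 0% of all genes. At an unadjusted p under 0.05 it gave 3 of the 8, Pf4, Vwf and Car2, all lower in H2afy_KO. Of all tested genes 7.58% had such a p, 3.69% lower and 3.88% higher. DESeq2 called 1 gene of the set, Pf4, against 0.875% of all genes (128 genes; 0.54% lower). The edgeR fit with the replicate number as a block called 0 of the set and 0.109% of all genes (15 genes; 0.0802% lower). DESeq2 with that block, added after the data were seen, called Pf4 alone in the set and 3.3% of all genes (1.61% lower). The groups overlapped in all 10 genes, while 4.53% of tested genes had groups that did not overlap (2.35% with H2afy_KO lower). Of the 8 tested genes, 7 had a negative log2 fold change (H2afy_KO over H2afy_WT), as did 49.9% of all tested genes, and 6 were below -1, as were 2.56%. The filter keeps a gene that is high in one group only, so these shares support no direction for the set as a whole.

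**Figure D1:**
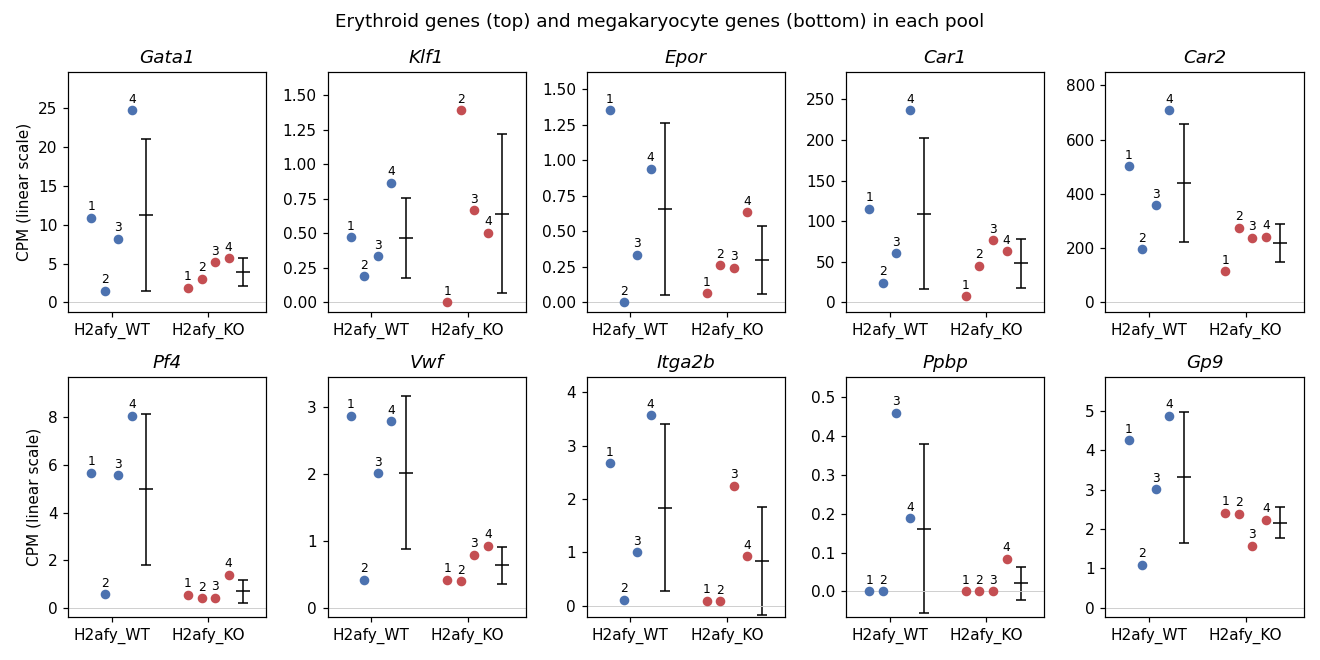
Level of each of the 10 genes in every pool, in CPM on linear axes that differ between panels. Points are pools marked with their replicate number (blue H2afy_WT, red H2afy_KO), and bars are the mean ± SD of 4 pools. H2afy_WT 2 lies among the H2afy_KO pools or below them in each panel, and H2afy_WT 1 and 4 are the highest pair in 8 panels.

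Gata1 (ENSMUSG00000031162, chromosome X, 7536386 to 7555197 on the minus strand of NCBIM37, the assembly of mm9) encodes the zinc finger factor named above. Its level was 10.9, 1.47, 8.16 and 24.8 CPM in H2afy_WT 1 to 4 and 1.91, 3.04, 5.16 and 5.70 CPM in H2afy_KO 1 to 4. In 3 of the wild-type pools Gata1 stood above every knockout pool, and in H2afy_WT 2 below them all. The means were 11.3 ± 9.80 and 3.95 ± 1.78 CPM (SD, n = 4 each), a log2 fold change of -1.52 (SE 0.75, 95% interval -3.25 to 0.20, edgeR adjusted p = 0.693). Without H2afy_WT 4 it was -0.80 (SE 0.63). Within the H2afy_WT group the highest pool was 16.8 times the lowest, and within H2afy_KO 2.99 times. The difference between genotypes did not exceed the spread between pools.

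Klf1 (ENSMUSG00000054191, chromosome 8, 87425827 to 87429194, plus strand) encodes the factor that switches on the adult globin gene and much of the red cell membrane. It was barely detected, with 14, 5, 8 and 23 counts in H2afy_WT 1 to 4 and 0, 32, 11 and 12 counts in H2afy_KO 1 to 4. The 0 in H2afy_KO 1 allows up to 0.0953 CPM (3 counts, counting error only), below the 0.189 CPM of the lowest wild-type pool. Klf1 was the only tested gene of the set with a positive log2 fold change, 0.44 (SE 0.93, interval -1.61 to 2.49, edgeR adjusted p = 0.944), and that sign rested on H2afy_KO 2: without that pool it was -0.31 (SE 1.03, edgeR adjusted p = 0.95). Without H2afy_WT 4 it was 0.92.

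Epor (ENSMUSG00000006235, chromosome 9, 21763343 to 21768020, minus strand), the erythropoietin receptor gene, had 40, 0, 8 and 25 counts in H2afy_WT and 2, 6, 4 and 15 counts in H2afy_KO, replicates 1 to 4 in order. The pools with the most counts were H2afy_WT 1 and 4, and the pool with 0 was also wild type, where up to 0.113 CPM could go unseen. With no filter on low counts the log2 fold change was -1.13 (SE 0.93, edgeR adjusted p = 0.70).

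Car1 and Car2 encode carbonic anhydrases. They lie 107966 bases apart on chromosome 3, Car1 (ENSMUSG00000027556) at 14766217 to 14778459 on the minus strand and Car2 (ENSMUSG00000027562) at 14886426 to 14900769 on the plus strand. Car1 marks early erythroid progenitors, and Car2 is used more widely, also outside the erythroid branch. Car1 had 115.5, 24.4, 60.4 and 236.5 CPM in H2afy_WT 1 to 4 and 7.33, 45.4, 76.4 and 63.0 CPM in H2afy_KO 1 to 4. H2afy_WT 1 and 4 were above all knockout pools, and the other wild-type pools lay among them. Its log2 fold change was -1.19 (SE 0.91, edgeR adjusted p = 0.808), and -0.48 without H2afy_WT 4.

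Car2 had 501, 195, 358 and 708 CPM in H2afy_WT 1 to 4 and 115, 275, 239 and 241 CPM in H2afy_KO 1 to 4, so 3 wild-type pools lay above the knockout range and H2afy_WT 2 inside it. The means were 441 ± 218 and 218 ± 70.4 CPM (SD, n = 4 each). By its mean over all pools, Car2 ranked at the 96.9th percentile of tested genes. Its log2 fold change was -1.02 (SE 0.41, interval -1.97 to -0.07, edgeR adjusted p = 0.624). The ratio of Car1 to Car2 in CPM was not constant over the pools: it was 0.0638 in H2afy_KO 1 and 0.125 in H2afy_WT 2, the lowest pools, and 0.320 and 0.334 in H2afy_KO 3 and H2afy_WT 4, the highest.

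Pf4 (ENSMUSG00000029373, chromosome 5, 91201461 to 91202407, plus strand) encodes platelet factor 4, a chemokine stored in the alpha granules of megakaryocytes and platelets. It had 5.67, 0.566, 5.57 and 8.08 CPM in H2afy_WT 1 to 4 and 0.540, 0.391, 0.425 and 1.39 CPM in H2afy_KO 1 to 4. Only H2afy_WT 2 reached down into the knockout range. The means were 4.97 ± 3.16 and 0.687 ± 0.474 CPM (SD, n = 4 each), so the H2afy_KO mean was 13.8% of the H2afy_WT mean. The log2 fold change was -2.84 (SE 0.74, interval -4.48 to -1.19), with an edgeR adjusted p of 0.426.

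The call for Pf4 depended on the tool. DESeq2 gave a log2 fold change of -2.85 (SE 0.63) with an adjusted p of 0.00291. The edgeR fit with the replicate block gave -2.63 (SE 0.53) with an adjusted p of 0.108. Over the 8 fits with a pool left out, the log2 fold change stayed between -3.43 and -2.50 and the edgeR adjusted p between 0.141, without H2afy_WT 2, and 0.830, without H2afy_WT 1. These values rest on 7 to 33 counts in each H2afy_KO pool and 15 to 215 in each H2afy_WT pool.

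Ppbp (ENSMUSG00000029372, chromosome 5, 91197544 to 91199086, plus strand) lies 2374 bases before Pf4 and encodes another platelet chemokine, the precursor of CXCL7. Its counts were 0, 0, 11 and 5 counts in H2afy_WT 1 to 4 and 0, 0, 0 and 2 counts in H2afy_KO 1 to 4, so 5 of 8 pools had none, H2afy_WT 1 among them, where Pf4 had 168 counts. A count of 0 allows up to 0.0953 to 0.182 CPM in these 5 pools. With no filter the log2 fold change was -2.64 (SE 1.53, edgeR adjusted p = 0.70).

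Vwf (ENSMUSG00000001930, chromosome 6, 125496792 to 125636697, plus strand) encodes von Willebrand factor, which tethers platelets to collagen and is also made by endothelium and by some stem cells. It had 2.87, 0.415, 2.01 and 2.78 CPM in H2afy_WT 1 to 4 and 0.413, 0.391, 0.789 and 0.928 CPM in H2afy_KO 1 to 4. As for Pf4, 3 wild-type pools were above the knockout range and H2afy_WT 2 was within it. The log2 fold change was -1.68 (SE 0.60, interval -3.00 to -0.37, edgeR adjusted p = 0.522).

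Itga2b (ENSMUSG00000034664, chromosome 11, 102314611 to 102331436, minus strand) encodes the alpha chain (CD41) of the platelet fibrinogen receptor. Its level was 2.67, 0.113, 1.0 and 3.57 CPM in H2afy_WT 1 to 4 and 0.0953, 0.0870, 2.24 and 0.928 CPM in H2afy_KO 1 to 4. Both groups held pools near the level of 3 counts and pools above 2 CPM. The log2 fold change was -1.18 (SE 1.15, edgeR adjusted p = 0.851), and with each pool left out it ran from -2.32, without H2afy_KO 3, to -0.63, without H2afy_WT 4. Itga2b was the only gene of the set whose span another gene overlaps, AL596258.1 on the same strand, which had 2 counts in all.

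Gp9 (ENSMUSG00000030054, chromosome 6, 87728130 to 87729756, plus strand) encodes a small subunit of the GPIb-IX-V complex, the platelet receptor for von Willebrand factor. It had 4.26, 1.1, 3.01 and 4.89 CPM in H2afy_WT 1 to 4 and 2.41, 2.39, 1.58 and 2.24 CPM in H2afy_KO 1 to 4. H2afy_WT 2 was the lowest of all 8 pools. The H2afy_KO pools were close together, at 2.15 ± 0.393 CPM (SD, n = 4), and the log2 fold change was -0.62 (SE 0.43, edgeR adjusted p = 0.775). Without H2afy_WT 4 it was -0.37.

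**Figure D2:**
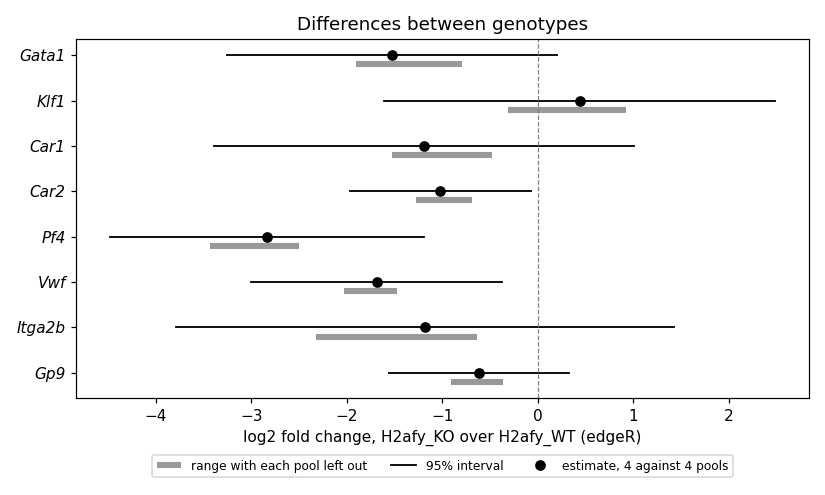
Log2 fold change of the 8 tested genes (H2afy_KO over H2afy_WT, edgeR). Points are estimates from 4 against 4 pools, thin lines their 95% intervals, and grey bars the range of estimates with each pool left out in turn. The intervals of Car2, Pf4 and Vwf lie below 0 before adjustment over all genes, and the grey bar of Klf1 crosses 0.

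Pools of one genotype differed, in like order for most genes of the set. H2afy_WT 1 and 4 were the highest pair in 8 of the 10 genes, all but Klf1 and Ppbp, where that holds for 5.62% of the tested genes. This pair was singled out after the values were seen. H2afy_WT 4 alone was highest in 6 genes, and 9.89% of tested genes were highest in that pool. The summed CPM of the 5 megakaryocyte genes was 15.5, 2.19, 12.1 and 19.5 in H2afy_WT 1 to 4, and 3.46, 3.26, 5.03 and 5.57 in H2afy_KO 1 to 4. For the 5 erythroid genes it was 630, 221, 428 and 971 CPM in H2afy_WT, and 124, 326, 322 and 311 CPM in H2afy_KO.

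Leaving out both H2afy_WT 1 and 4 was tried once the values were known, and it took the erythroid median from -1.10 to -0.07 and the megakaryocyte median from -1.43 to -0.44 (log2, 4 tested genes each; the median of all tested genes was 0.00). Car1, Itga2b and Gp9 then had positive log2 fold changes of 0.17 (SE 0.99), 0.54 (SE 1.40) and 0.07 (SE 0.51), while Pf4 was at -2.15 (SE 0.86, edgeR adjusted p = 0.798) and Vwf at -0.95 (SE 0.77). Without H2afy_WT 4 alone the erythroid median was -0.58.

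The replicate numbers of the labels give 4 comparisons of a knockout with a wild-type pool. All 10 genes were lower in H2afy_KO 4 than in H2afy_WT 4 (median difference -1.53 in log2 CPM), and 9 were lower in H2afy_KO 1 than in H2afy_WT 1, with Ppbp at 0 counts in both (median -2.69). At number 2, 6 genes were higher in the knockout pool, 3 lower and 1 equal (median 0.69). At number 3, 7 were lower and 3 higher (median -0.62). Pf4 and Vwf were the genes lower in the knockout pool at all 4 numbers, with Vwf nearly level at number 2 (-0.07) and Pf4 at -0.46 there.

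**Figure D3:**
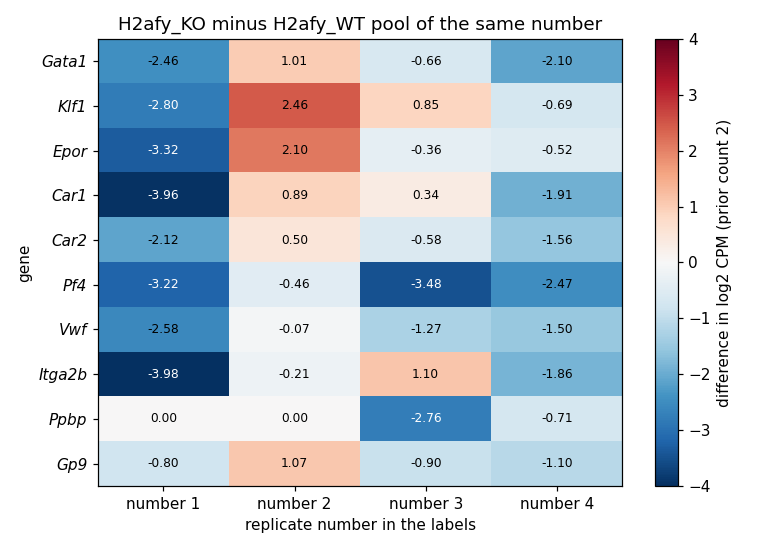
Difference in log2 CPM (prior count 2) between the H2afy_KO and the H2afy_WT pool of the same replicate number, for each gene. Blue cells are lower in the knockout pool and red cells higher. Columns 1 and 4 are blue throughout except for Ppbp at number 1, and column 2 holds most of the red cells.

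The 10 genes varied together over the 8 pools, to differing degrees. All pairs of genes had a positive Pearson correlation of log2 CPM over the 8 pools, with medians of 0.81 within the erythroid genes (10 pairs), 0.70 within the megakaryocyte genes (10 pairs) and 0.73 between the branches (25 pairs). The closest pair was Pf4 and Vwf (r = 0.95). Klf1 stood furthest from the megakaryocyte genes, with r = 0.14 to Ppbp, 0.19 to Pf4, 0.25 to Gp9 and 0.31 to Vwf. The values of Ppbp rest on at most 11 counts in a pool. These values describe pools that share libraries and scaling, and no test was made of them. No medians over other genes stand beside them. Among 12218 genes with a mean of at least 1 CPM, the profiles most like Gata1 were those of Mfap1b (r = 0.97), Slc38a5 (0.96), Cldn13 (0.96), 2610507I01Rik (0.96) and Rhd (0.96). Slc38a5 also lies on the X chromosome, 293061 bases from Gata1, and Rhd encodes a blood group protein of the red cell membrane. Those most like Pf4 were Gm16610 (0.95), Vwf (0.95), Mlst8 (0.94), Gdap1 (0.92) and Wwp2 (0.92). Both genotypes enter these correlations, so a difference between the groups raises or lowers r. Gm16610 averaged 346 CPM in H2afy_WT and 3.36 CPM in H2afy_KO (log2 fold change -6.68).

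Globin genes were low. Their sum was highest in H2afy_WT 1 and 4. The 4 globin genes Hba-a1, Hba-a2, Hbb-b1 and Hbb-b2, whose near-identical copies can share reads, summed to 23.3, 0.642, 3.47 and 22.7 CPM in H2afy_WT 1 to 4 and 1.18, 3.13, 8.37 and 7.64 CPM in H2afy_KO 1 to 4. For Hbb-b1 the log2 fold change was -1.25 (SE 1.33), and for Hba-a1 it was -1.74 (SE 1.15). Alas2, the erythroid enzyme that starts haem synthesis, had 2.01 ± 1.71 CPM in H2afy_WT and 0.765 ± 0.404 CPM in H2afy_KO (SD, n = 4 each; -1.42, SE 0.74). Xk, which encodes a red cell membrane protein, was at -0.40 (SE 0.22) with groups that did not overlap. Of the 26 tested genes of the wider erythroid list, edgeR called 0, DESeq2 0 and 0 had an unadjusted p under 0.05. The list had 23 negative values and a median log2 fold change of -0.87, where 49.9% of all tested genes were negative. That share also applies to the counts of negative values in the lists below. As for the set, the filter keeps a gene that is high in one group only, so the 23 support no direction. H2afy_WT 4 was highest in 20 of the 26 genes (76.9%), against 9.89% of all tested genes. The list also holds genes of higher level. For Gypc (58.3 ± 11 CPM in H2afy_WT, SD, n = 4) and Bpgm (22.5 ± 6.20 CPM) H2afy_WT 1 and 4 were not the highest pair. For Hemgn (22.3 ± 14.4 CPM) they were, at 26.5 and 40.7 CPM. Icam4 had 0 counts in all pools. Tfrc, the transferrin receptor gene used by all dividing cells, was at 224 ± 18.4 CPM in H2afy_WT and 245 ± 32.6 CPM in H2afy_KO (SD, n = 4 each; 0.13, SE 0.13).

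The haem and iron list, whose enzymes most cells use, had smaller values: 11 of its 15 tested genes were negative, from -0.31 to 0.33, with a median of -0.18. EdgeR called 0 and DESeq2 0, and 1 gene, Ppox (-0.31, SE 0.12), had an unadjusted p under 0.05. Slc25a37, a mitochondrial iron carrier gene, was at -0.26 (SE 0.15).

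Genes of the mature megakaryocyte were in part at or near 0. Gp1bb and Gp6 had 0 counts in all 8 pools, Tubb1 had 1 count in each of 2 pools, and Gp5 had at most 4 counts in a pool. Overlaps with other genes were looked up only for the genes of the set. For Gp1bb, Gp6 and Icam4, reads lost in counting therefore cannot be told from absent transcripts. Gp1bb and Gp5 encode partners of GP9 in its receptor complex. The third partner, Gp1ba, had 0.867 ± 0.455 CPM in H2afy_WT and 1.29 ± 0.306 CPM in H2afy_KO (SD, n = 4 each; 0.56, SE 0.49). Itgb3, the beta chain that pairs with the product of Itga2b, had 6.25 ± 3.46 and 10.9 ± 2.69 CPM in H2afy_WT and H2afy_KO, a log2 fold change of 0.80 (SE 0.37) with the opposite sign to Itga2b.

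Of the 25 tested genes of this wider megakaryocyte list, edgeR called 0, DESeq2 0 and 1 had an unadjusted p under 0.05. That gene was Mmrn1, which encodes a carrier of factor V in platelets, and its groups did not overlap (34.5 ± 13.1 CPM in H2afy_WT and 8.78 ± 7.02 CPM in H2afy_KO; log2 fold change -1.97, SE 0.64, edgeR adjusted p = 0.522). Unlike the genes of the set, Mmrn1 was highest in H2afy_WT 2, at 50.7 CPM. The list had 17 negative and 8 positive values and a median of -0.26.

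The factors that work with GATA1 had values of both signs. Gfi1b, which encodes a transcriptional repressor that both branches use, had 49.7 ± 22.5 CPM in H2afy_WT and 63.5 ± 17.5 CPM in H2afy_KO (0.35, SE 0.33). Nfe2, which drives platelet release, was at 22.6 ± 5.30 and 22.5 ± 2.90 CPM (-0.01, SE 0.19). Gata2, the earlier GATA factor, had 2.86 ± 1.92 and 1.11 ± 0.695 CPM (-1.37, SE 0.65). Tal1, of the SCL complex, had 3.35 ± 0.177 and 2.36 ± 0.274 CPM with no overlap between the groups (-0.51, SE 0.26). Zfpm1, which encodes FOG1, had at most 19 counts in a pool and was not tested. Of the 17 tested factors, edgeR called 0, DESeq2 0, and 1 had an unadjusted p under 0.05, Lyl1 (0.55, SE 0.18). Their median was -0.02, with 10 negative and 7 positive. Klf3 was at -0.62 (SE 0.28). For the genes of receptor signalling the median was 0.13 over 13 tested genes, of which 0 were called by either tool and 2 had an unadjusted p under 0.05, Ptpn6 (0.35, SE 0.14) and Bcl2l1 (-0.55, SE 0.24).

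**Figure D4:**
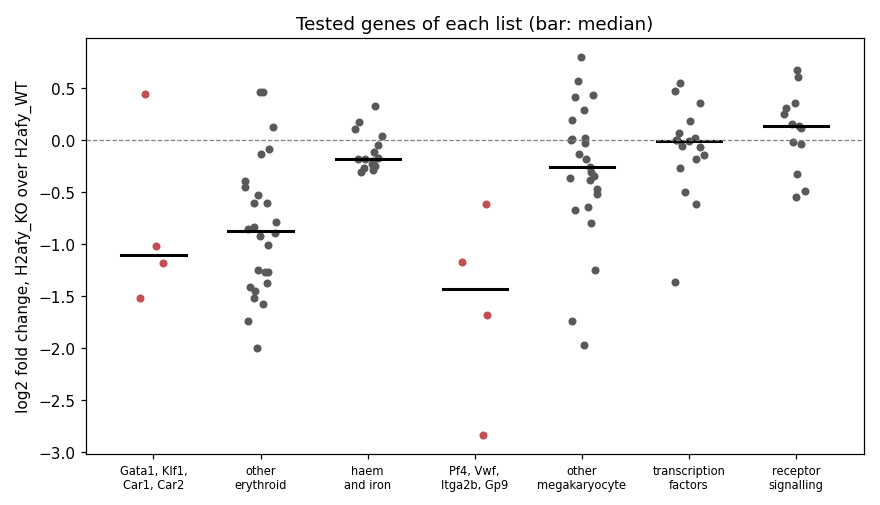
Log2 fold change (H2afy_KO over H2afy_WT, edgeR) of each tested gene, by list, with a bar at the median. Points left to right are the 4 tested erythroid genes of the set, the wider erythroid list, haem and iron genes, the 4 tested megakaryocyte genes of the set, the wider megakaryocyte list, factors that work with GATA1, and receptor signalling genes. The medians run from -1.43 to 0.13.

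Markers of other cells also varied between pools, and their part in the values above was not tested. A granulocyte list of 12 genes, all measured, summed to 6720, 1457, 2087 and 10190 CPM in H2afy_WT 1 to 4 and to 983, 1806, 3231 and 3052 CPM in H2afy_KO 1 to 4. All 12 genes were highest in H2afy_WT 4, the pool that led 6 genes of the set, and none of the list was at 0. Ngp, a granule protein gene of neutrophils, had 1958, 240, 453 and 2896 CPM in H2afy_WT and 154, 273, 346 and 614 CPM in H2afy_KO (-2.0, SE 0.89). All 12 log2 fold changes were negative, with a median of -1.25. EdgeR called 0 of them and DESeq2 1, Csf3r (-0.81, SE 0.18), which was the gene whose groups did not overlap.

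Mast cells, basophils and eosinophils also use GATA1. Their list of 14 genes summed to 22.1 to 287 CPM in H2afy_WT and 15.3 to 625 CPM in H2afy_KO. The sum was highest in H2afy_KO 3, unlike the set, and lowest in H2afy_KO 1 and H2afy_WT 2, as was the erythroid sum. Prg2 alone gave 421 of the 625 CPM in H2afy_KO 3 and 191 of the 344 CPM in H2afy_KO 4. Of its 10 tested genes, 4 were highest in H2afy_KO 3, 3 in H2afy_KO 4 and 2 in H2afy_WT 4. The eosinophil granule gene Epx had 7.60, 0.0378, 0.670 and 22.0 CPM in H2afy_WT 1 to 4 and 0.0318, 0.217, 20.9 and 0.0422 CPM in H2afy_KO 1 to 4. Cpa3, a mast cell protease gene, was at -0.78 (SE 0.65). Of the mast cell protease genes, Tpsb2 and Mcpt4 had counts in 2 pools each, and Cma1 had counts in 4. Il5ra and Ccr3, listed here as eosinophil genes, were at 1.82 (SE 1.48) and 1.47 (SE 0.95). Il5ra had 78.7 and 44.0 CPM in H2afy_KO 3 and 4, where Tnfrsf17 of the plasma cell list had 63.3 and 47.3 CPM. Ccr3 had 11.8 and 0.675 CPM in those pools. Which cells these transcripts came from was not tested.

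Vwf is also a gene of endothelium. In the list of 13 endothelial genes Sox17, Sox18 and Cldn5 had at most 3 counts in a pool. Cdh5, the cadherin of endothelial junctions, was at 1.54 ± 1.29 CPM in H2afy_WT and 2.30 ± 1.61 CPM in H2afy_KO (0.57, SE 0.79). Of the 7 tested genes of the list, 3 were negative, as Vwf was, and 4 positive, with a median of 0.03. The list summed to 312 to 417 CPM in H2afy_WT and 332 to 388 CPM in H2afy_KO, mostly from Pecam1 and Egfl7 (-0.28, SE 0.19), which blood cells also express. Robo4 was lower in H2afy_KO with no overlap (-3.70, SE 0.49, edgeR adjusted p = 0.0531). With the replicate block its adjusted p was 0.0415, and with DESeq2 2.6e-13.

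Among stem cell genes, which share Vwf and Itga2b with megakaryocytes, 8 of 12 tested were negative, with a median of -0.21. An unadjusted edgeR p under 0.05 was found for 3, all lower in H2afy_KO, against 3.69% of all tested genes. The most negative was Mecom (-1.56, SE 0.56, edgeR adjusted p = 0.529). It had 3.58, 0.793, 3.52 and 4.13 CPM in H2afy_WT 1 to 4. In H2afy_KO 1 to 4 it had 1.11, 1.17, 1.46 and 0.34 CPM. Angpt1 was at -0.71 (SE 0.18) with groups that did not overlap, an edgeR adjusted p of 0.426 (0.188 with the replicate block) and a DESeq2 adjusted p of 0.0496. Erg was at -0.85 (SE 0.25). The stem cell list summed to 563 to 886 CPM in H2afy_WT and 710 to 1191 CPM in H2afy_KO. Most of this came from Cd34 (321 ± 68.7 CPM in H2afy_WT and 379 ± 87.6 CPM in H2afy_KO) and Ly6a. Ly6a had 119 ± 41.5 and 301 ± 255 CPM (1.34, SE 0.71), with 618 and 397 CPM in H2afy_KO 3 and 4. The macrophage list of 12 genes summed to 95 to 199 CPM in H2afy_WT and 133 to 308 CPM in H2afy_KO and was highest in H2afy_KO 3 for 9 genes. Cd163 (0.33, SE 0.13) and Csf1r (0.65, SE 0.30) had the smallest p of that list. Plasma cell genes, summed over 7, covered 594 to 9136 CPM in H2afy_WT and 176 to 20630 CPM in H2afy_KO, with Sdc1 at 1.24 (SE 0.43) and Xbp1 at 1.6 (SE 0.80). All 7 plasma cell genes were positive, and edgeR and DESeq2 called 0 of them. Of the 14 genes of the lymphoid progenitor list, 11 were negative, 9 had an unadjusted p under 0.05 and 7 had groups that did not overlap. Over all tested genes 7.58% had such a p (3.69% lower). Groups did not overlap in 4.53% of them (2.35% with H2afy_KO lower). EdgeR called 0 of them, DESeq2 called Rag1 and Ebf1, and the edgeR fit with the replicate block called Rag1. Rag1 was at -1.65 (SE 0.47) and Dntt at -0.50 (SE 0.16). T and NK cell genes summed to 365 to 383 CPM in H2afy_WT and 247 to 421 CPM in H2afy_KO. Lck made up most of that, on average 357 of 376.3 CPM in H2afy_WT and 312.7 of 339.5 CPM in H2afy_KO. Cd3e had at most 9 counts in a pool. Of 6 tested genes 3 were negative (median 0.04), with Cd8a at 1.78 (SE 0.92), Cd4 at 0.75 (SE 0.46) and Ncr1 at -0.50 (SE 0.93).

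**Figure D5:**
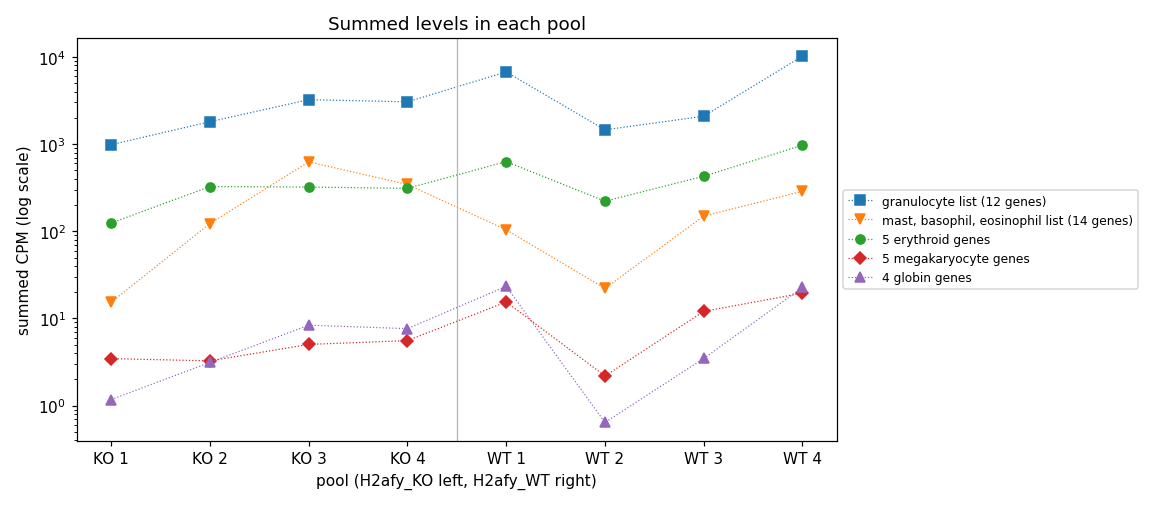
Summed CPM (log axis) in each of the 8 pools for the 5 erythroid genes, the 5 megakaryocyte genes, 4 globin genes, the granulocyte list and the list of mast cells, basophils and eosinophils. Dotted lines only join points of one sum. H2afy_WT 1 and 4 hold the highest values of the erythroid, megakaryocyte, globin and granulocyte sums, and H2afy_KO 3 the highest of the mast cell, basophil and eosinophil sum.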

How the data were processed

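RNA was measured in 8 pools of sorted cells. Reads of 50 bases were mapped by HISAT2 2.0.6 on mm9, according to the submitters' processing notes. Not given in the sources used here are the gene counter, the annotation and the strand setting. The deposited values are raw counts of reads, 1 whole number per gene and pool. The cDNA kit does not mark strand, so sense and antisense reads cannot be told apart.

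GENCODE M1 (NCBIM37, the assembly of mm9) named 37205 of 37991 gene IDs. Of 218 list symbols, 2 did not match. The main test was the quasi-likelihood test of edgeR (4.0.16, R 4.3.3) on all 8 pools with robust fitting, TMM scaling and a filterByExpr minimum count of 10, Benjamini-Hochberg adjustment over 13722 genes and a threshold of 0.05. SEs are the log2 fold change over the root of F. The prior count of log2 CPM was 2. H2afy_KO is the numerator of each fold change. The other settings were upper-quartile and RLE factors, DESeq2 (1.42.0), 2 other filters, a replicate block, no immunoglobulin genes, and pools left out. The script was tested on simulated data.

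The members and lists were chosen with earlier results of these data known. Named genes were the 10 members, from each list up to 4 genes past the threshold or else the 2 of smallest p, 12 further markers, and the 5 profiles most like Gata1 and Pf4. The results of 2 of these markers are not reported here. Any further gene was picked with its values in view. Same-numbered pools deviated together (r = 0.19, 0.19, 0.36 and 0.41 across genes), all over 0.1, so by the rule set the numbers were read as pairing the pools. Unlike numbers deviated together more strongly in places (H2afy_KO 1 with H2afy_WT 2, r = 0.52; H2afy_KO 3 with H2afy_WT 4, r = 0.45), so this pairing is only a hint from the data. Shared mice between pools are not mentioned in the labels, so p-values measure only the spread between these pools. No pool repeated another (chi-square per degree of freedom at least 101 over the pairs of pools).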

Additional observations from a re-analysis of the deposited data

Results flagged for a closer look

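A check for pools that stand far from the other 3 of their group was made on 24 groups of 4, where chance marks about 1 in 20, and it marked 3. Some of the 24 groups are sums of genes that are also examined singly, so 1 in 20 is only a rough guide. Pf4 in H2afy_KO 4 was at 1.39 CPM, with the other H2afy_KO pools at 0.391 to 0.540 CPM. Ppbp in H2afy_KO 4 was at 0.0844 CPM, which is 2 counts, with 0 counts in the other 3. With those 3 equal, the check marks H2afy_KO 4 at any count above 0. The summed level of the 5 erythroid genes was 124.3 CPM in H2afy_KO 1, with the other H2afy_KO pools at 310.5 to 325.5 CPM.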

How the results depend on the processing

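EdgeR called 0 of the genes of the set that each setting could test, over the normalizations, filters and left-out pools tried and the replicate block. By edgeR, Ppbp was tested only with no filter, Epor in some settings, and the filter of 5 CPM kept only Car1 and Car2. DESeq2 called 1, Pf4, and 1 with the replicate block (adjusted p = 0.000216), a setting chosen after seeing the data. Over all genes the main test called 0 genes. The count was 5 with upper-quartile factors, 128 with DESeq2, 16 with no filter, 2 with at least 5 CPM in 4 samples, 15 with the replicate block, 3 without immunoglobulin genes, 485 with DESeq2 and the block, and 0 to 1 with each pool left out. The median of the tested erythroid genes was -1.40 to -0.58 and that of the megakaryocyte genes -2.06 to -1.06 with each pool left out. Without both H2afy_KO 3 and 4 the megakaryocyte median was -2.84. Without both H2afy_WT 1 and 4, chosen after seeing the data, the medians were -0.44 (megakaryocyte) and -0.065 (erythroid), and the log2 fold changes of Car1, Itga2b and Gp9 turned to 0.17, 0.54 and 0.066. Klf1 turned to -0.31 without H2afy_KO 2 (range -0.31 to 0.92 with each pool left out) and to -0.14 under DESeq2 with the block. Of 138 single-gene values, 131 kept sign and side of the threshold. The causes were not tested. The filter of 5 CPM therefore gave no megakaryocyte median. Klf1, Epor and Ppbp rest on at most 40 counts in any pool.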
